A study of Mus musculus with 7 samples.

Results

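A set of 10 genes that mark the fibroblasts of the brain's coverings were followed in bulk RNA-seq of mouse cortex. They were 10 of the 23413 gene symbols in the count files, and all 10 were among the 15881 symbols that passed the filter on low counts. The genes were Col1a1, Col1a2, Col3a1, Dcn, Lum, Ogn, Islr, Igf2, Slc6a13 and Slc22a6. They had been selected on an earlier analysis of these same 7 libraries, in which their levels by library and their difference between diets were known. The levels and differences given below are therefore a description, with no test.

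All libraries came from the cortex of APP/PS1 mice, which carry mutant human amyloid precursor protein and presenilin transgenes (APPswe and PSEN1dE9) and deposit amyloid in the brain. From 6 months of age the mice received either the control diet (CD, called SD in the sample labels; 74% of energy from carbohydrate, 16% from fat and 10% from protein) or a ketogenic diet (KD; under 0.5% carbohydrate, 90% fat and 10% protein). The diets lasted 7 months, and cortex was taken at 13 months. The CD group held 4 mice and the KD group 3, each mouse giving 1 library, so that p-values measure the spread among these mice. The transgenes were in both groups, and no library here came from a wild-type mouse. The study used both sexes, and the labels do not give the sex of each mouse. RNA came from about 10 mg of frozen tissue per mouse.

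The meninges are the membranes that wrap the brain, and their fibroblasts make most of the fibrillar collagen and small proteoglycans found there. Fibroblasts of the same lineage follow the larger vessels into the tissue. Healthy cortical parenchyma holds very little fibrillar collagen, and the genes are best known from the pia, the arachnoid and the walls of larger vessels. Meningeal fibroblasts also carry a set of membrane transporters at the border with cerebrospinal fluid.

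The level of every member was highest in CD replicate 4, in which the 10 members summed to 405 CPM (a gene's counts divided by the library total, scaled to the same sum in each library). In the other libraries the sum was 68.4, 74.9 and 121 CPM for CD replicates 1 to 3, and 71.9, 59.8 and 182 CPM for KD replicates 1 to 3. CD replicate 4 was the highest library for 25.3% of all tested genes. The library totals were 35088582, 29905345, 32782790 and 36614954 counts in CD and 23383393, 34028808 and 22272883 in KD. A floor of 3 counts corresponded to 0.0819 to 0.135 CPM, well under the lowest member value. KD replicate 3 was the next highest library for 8 members and CD replicate 3 for the other two, Col1a2 and Islr. In bulk tissue, fewer fibroblasts and less RNA per fibroblast cannot be told apart.

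**Figure D1:**
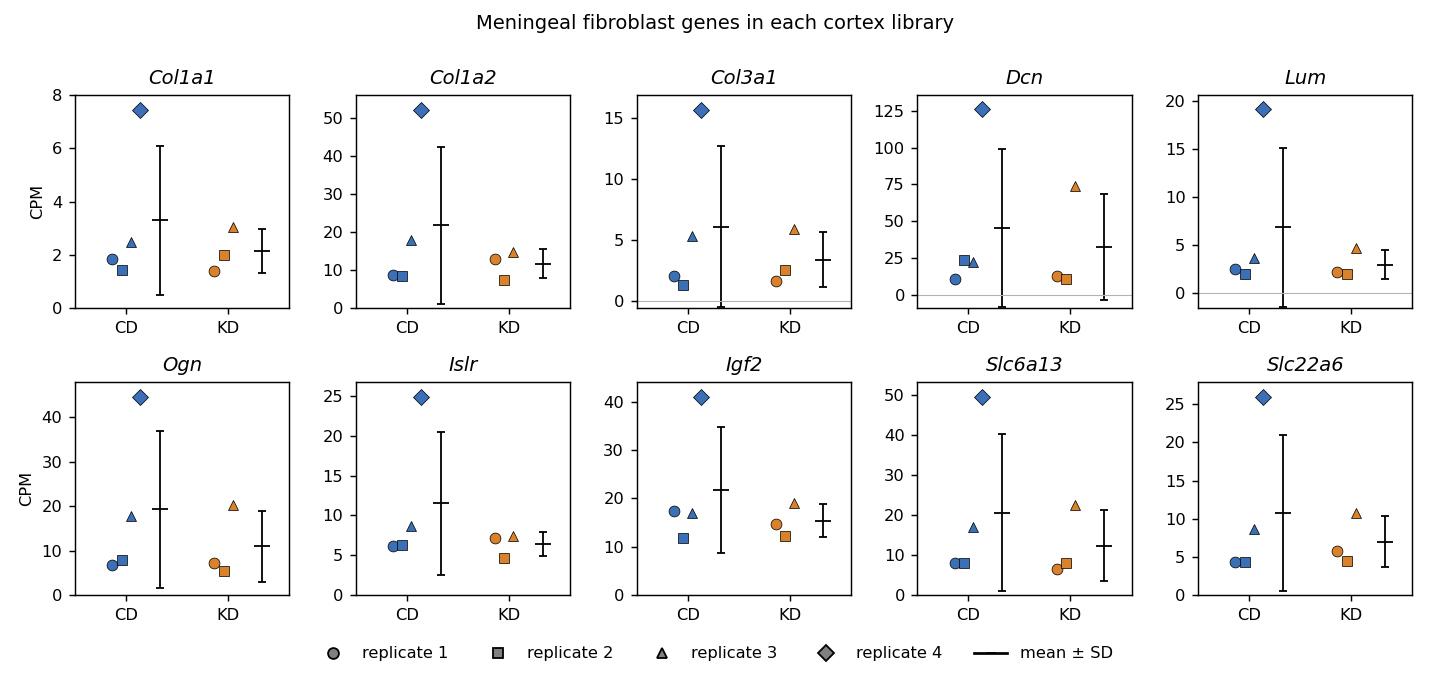
Level of each of the 10 meningeal fibroblast genes in CPM (vertical axis, a separate linear scale for each gene) in the 4 CD libraries (blue) and the 3 KD libraries (orange), with marker shape giving the replicate and bars giving mean ± SD. In every panel CD replicate 4 is the highest point, and the ranges of the CD and KD libraries overlap.

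The stretch of 100 bases before the transcription start is shown for the 5 members that have a single promoter entry in the RefSeq table (build GRCm38.p6), since these are the genes that moved together across libraries and their upstream letters can be compared. Capitals mark matches to motifs searched on both strands. The letters TATAAA are bound by the general transcription machinery. The letters CCAAT are read by nuclear factor Y. The letters GGGCGG are read by factors of the Sp family. The letters GGAATG are read by the TEAD factors, partners of YAP. The sequences read 5′ to 3′ on the gene's own strand.
Col1a2, chr6:4505518-4505617, plus strand: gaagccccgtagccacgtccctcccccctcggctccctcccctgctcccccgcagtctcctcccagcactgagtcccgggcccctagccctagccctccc
Col3a1, chr1:45311438-45311537, plus strand: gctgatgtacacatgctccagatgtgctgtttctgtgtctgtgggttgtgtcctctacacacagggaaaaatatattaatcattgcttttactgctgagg
Ogn, chr13:49607915-49608014, plus strand: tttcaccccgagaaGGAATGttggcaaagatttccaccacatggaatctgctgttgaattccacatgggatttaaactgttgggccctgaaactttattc
Islr, chr9:58158555-58158654, minus strand: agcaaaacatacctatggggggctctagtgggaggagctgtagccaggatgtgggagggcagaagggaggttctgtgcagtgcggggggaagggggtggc
Slc22a6, chr19:8617896-8617995, plus strand: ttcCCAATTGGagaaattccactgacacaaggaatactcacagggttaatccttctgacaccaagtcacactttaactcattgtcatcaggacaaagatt

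Ogn held the TEAD letters, beginning 86 bases before the start. Slc22a6 held CCAAT on both strands in overlapping positions, beginning 97 bases before the start. Col1a2, Col3a1 and Islr held none of the 4 motifs in this window. Among 32851 RefSeq promoters cut to the same length, 5.56% held the first motif, TATAAA. The shares were 18.9% for CCAAT, 24.7% for GGGCGG and 4.71% for GGAATG. The Col1a2 and Islr windows lie inside the longer span that GENCODE M21 gives those genes, while the other windows lie just upstream of the gene. Igf2 and Slc6a13 have 4 and 3 entries and are not printed.

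The first 3 members are fibrillar collagens. Col1a1 and Col1a2 encode the chains that join to form type I collagen, the main fibre of connective tissue, and Col3a1 encodes type III collagen of pliable tissues and vessel walls. Col1a2 (chr6:4504814-4541544, plus strand) reached 8.64, 8.43, 17.9 and 51.9 CPM in CD replicates 1 to 4 and 12.8, 7.49 and 14.7 CPM in KD replicates 1 to 3. CD replicate 4 stood alone at the top, CD replicate 3 was second, and the remaining CD values fell within the KD range, so that the groups overlapped. The log2 fold change (KD minus CD, edgeR) was -0.87 with a standard error (SE) of 0.62. The CD mean was 21.7 ± 20.6 CPM (SD, n = 4) and the KD mean 11.7 ± 3.75 CPM (SD, n = 3), and without CD replicate 4 the CD mean was 11.7 ± 5.43 CPM (SD, n = 3).

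Col3a1 (chr1:45311538-45349706, plus strand) was at 2.05, 1.37, 5.37 and 15.7 CPM in the CD libraries and at 1.71, 2.59 and 5.97 CPM in the KD libraries. The replicates numbered 3 on both diets were higher than the replicates numbered 1 and 2, and the groups overlapped. Its log2 fold change was -0.82 (SE 0.81), and it was 0.20 without CD replicate 4. Col1a1 (chr11:94936224-94953042, plus strand) was the faintest of the 3, at 1.85, 1.44, 2.47 and 7.43 CPM in CD and 1.41, 2.0 and 3.05 CPM in KD. Its lowest value rested on 33 counts, in KD replicate 1, and the groups overlapped. Its log2 fold change was -0.59 (SE 0.57), and without CD replicate 4 it was 0.15.

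The 2 chains of type I collagen did not stand in a fixed proportion. The ratio of Col1a1 to Col1a2 CPM ran from 0.110 in KD replicate 1 to 0.267 in KD replicate 2, so Col1a1 was below Col1a2 in every library. Per kilobase of the longest coding transcript, the median over libraries was 0.337 CPM per kb for Col1a1, 2.40 for Col1a2 and 0.465 for Col3a1.

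The next 4 members encode secreted proteins built from leucine-rich repeats, a fold that binds collagen in many of them. Dcn encodes decorin, a small proteoglycan that binds collagen fibrils and TGF-beta. Dcn (chr10:97479609-97518143, plus strand) was at 10.6, 23.4, 22.5 and 126 CPM in CD and at 12.5, 10.7 and 73.7 CPM in KD. One library on each diet was far above the rest, CD replicate 4 and KD replicate 3, and the groups overlapped. KD against CD gave -0.48 on the log2 scale, with an SE of 0.96, the widest error of the 10. Among the 6 libraries other than CD replicate 4, Dcn still spanned 6.97-fold, against 1.61-fold for Igf2, the narrowest. Without KD replicate 3 the log2 fold change was -1.93, and without CD replicate 4 it was 0.75. Dcn was also the most abundant member, with a median of 12.8 CPM per kb.

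Lum encodes lumican, a keratan sulphate proteoglycan that regulates fibril spacing. Lum (chr10:97565128-97572703, plus strand), which lies beside Dcn, was at 2.54, 1.94, 3.63 and 19.1 CPM in CD and at 2.14, 2.0 and 4.67 CPM in KD. CD replicate 4 was 4.09-fold over the next library, the largest such gap among the members, and the other 6 libraries spanned 2.41-fold. The groups overlapped. The log2 fold change of -1.19 (SE 0.80) was the most negative of the 10, and it was 0.10 without CD replicate 4.

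Ogn encodes osteoglycin, also called mimecan, a further small proteoglycan of the meninges. Ogn (chr13:49608046-49624501, plus strand) was at 6.73, 7.93, 17.9 and 44.5 CPM in CD and at 7.23, 5.47 and 20.2 CPM in KD. It was raised in 3 libraries, CD replicates 3 and 4 and KD replicate 3, and the groups overlapped. KD against CD gave a log2 fold change of -0.80 (SE 0.70), and it was -0.01 without CD replicate 4. The gene span of Cenpp overlaps that of Ogn on the opposite strand, with 72 to 159 counts per library for Cenpp. Overlap of their exons was not examined, and the strand setting of the counting is not given. Whether the counting mixed reads of that pair is therefore not known.

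Islr encodes a secreted immunoglobulin and leucine-rich repeat protein, known as meflin in mesenchymal cells. Islr (chr9:58156268-58204306, minus strand) was at 6.13, 6.29, 8.69 and 24.8 CPM in CD and at 7.14, 4.70 and 7.41 CPM in KD. The 6 libraries other than CD replicate 4 lay within 1.85-fold of one another, and the groups overlapped. The log2 fold change was -0.82 (SE 0.49), and it was -0.15 without CD replicate 4, the most negative value left among the members. The gene span of Islr overlaps that of its more abundant neighbour Islr2 on the same strand, with 834 to 1603 counts per library for Islr2. Exon overlap was not examined for this pair either, so the Islr level is uncertain where the counting could split reads.

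Igf2 encodes insulin-like growth factor 2, an imprinted growth factor made in the adult brain by the meninges and the choroid plexus. Igf2 (chr7:142650766-142666816, minus strand) was at 17.4, 11.8, 16.9 and 40.9 CPM in CD and at 14.8, 12.3 and 19 CPM in KD. It was the steadiest member outside CD replicate 4, and CD replicate 4 lay 2.58-fold above the median of the other libraries, the smallest excess of the 10. The groups overlapped. The log2 fold change was -0.48 (SE 0.38), and it was -0.01 without CD replicate 4. The summed choroid plexus genes had a different highest library from Igf2, with 478 CPM in CD replicate 1 and 14.2 to 89.0 CPM elsewhere. Of that sum, Ttr alone was at 425 CPM in CD replicate 1. Of the 12 choroid plexus genes, 3 (25.0%) were highest in CD replicate 4, beside 25.3% of all tested genes.

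The last 2 members are membrane transporters. Slc6a13 encodes GAT2, a transporter of GABA and taurine that is found in the leptomeninges and not in neurons. Slc6a13 (chr6:121300227-121337733, plus strand) was at 8.12, 7.96, 17.1 and 49.3 CPM in CD and at 6.46, 8.08 and 22.4 CPM in KD. It was raised in CD replicates 3 and 4 and in KD replicate 3, as Ogn was, and the groups overlapped. Its log2 fold change was -0.73 (SE 0.69), and without CD replicate 4 it was 0.13.

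Slc22a6 encodes OAT1, the organic anion transporter best known from the kidney. Slc22a6 (chr19:8618039-8628299, plus strand) was at 4.36, 4.38, 8.63 and 25.9 CPM in CD and at 5.73, 4.50 and 10.8 CPM in KD. CD replicates 1 and 2 lay below all KD libraries while CD replicate 4 lay above them, so the groups overlapped. Its log2 fold change was -0.61 (SE 0.63), and without CD replicate 4 it was 0.26.

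In KD against CD, all 10 members had a negative log2 fold change, with a median of -0.77 beside 0.00 over all tested genes, of which 51.0% were negative. None of the members reached an adjusted p under 0.05 by edgeR (quasi-likelihood F test, Benjamini-Hochberg over the whole table), where 0 of 15881 genes (0%) did. Across all genes 506 had an unadjusted p under 0.05 in edgeR. DESeq2 also called 0 genes after adjustment and had 585 at an unadjusted p under 0.05. None of the members had an unadjusted p of at most 0.01, a level met by 0.321% of genes. In none of them did all KD libraries lie below all CD libraries, as happened for 2.56% of genes, or above them, as for 1.64%. Without CD replicate 4, 4 members were negative and 6 positive, with a median of 0.12. The median was -0.36 with log2 CPM of Xist, a transcript of female cells, as a covariate, -0.50 without KD replicate 1 and -1.26 without KD replicate 3. Because the members were selected with this contrast in view, these counts carry no test.

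**Figure D2:**
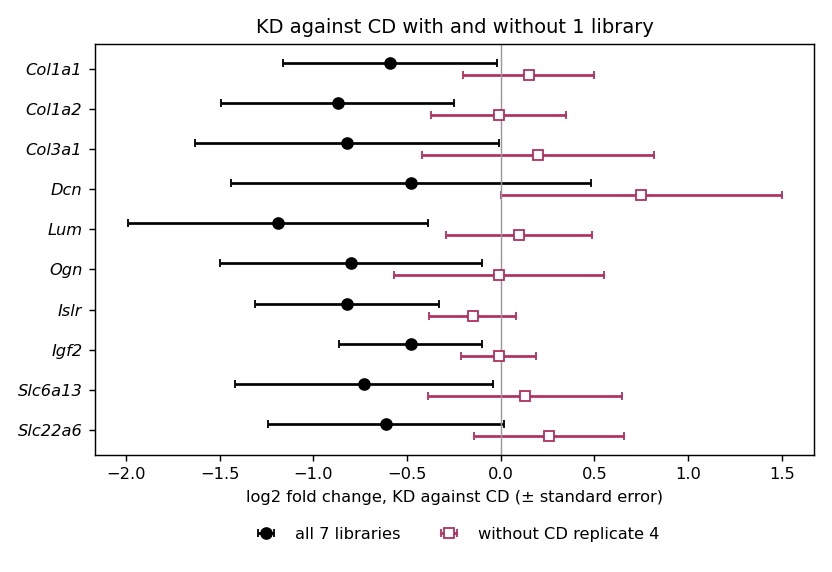
Log2 fold change of KD against CD (horizontal axis, ± SE) for each member over all 7 libraries (black circles) and without CD replicate 4 (open squares). All 10 black points lie below 0, and the squares run from -0.15 for Islr to 0.75 for Dcn.

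The members moved together across libraries. Over the 45 pairs of members, Pearson's r of log2 CPM over the 7 libraries ran from 0.77 to 0.98 with a median of 0.93. Without CD replicate 4 the range was 0.27 to 0.96 and the median 0.77. These values share library depth and dissection and were part of how the genes were chosen, so no p is given. Slc22a6 followed the mean of the other members most closely (r = 0.99) and Dcn least closely (r = 0.89). Without CD replicate 4 the order differed, with Lum and Ogn highest (r = 0.97) and Islr lowest (r = 0.65).

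The proportions between members still differed by library. The ratio of Col1a2 to Islr was the most constant, from 1.34 to 2.09, a span of 1.56-fold. Ogn over Slc6a13, at 0.676 to 1.12, spanned 1.65-fold. Dcn over Igf2 was the most variable, from 0.606 in CD replicate 1 to 3.88 in KD replicate 3, a span of 6.4-fold. Dcn over its neighbour Lum was 12.1 in CD replicate 2 and 15.8 in KD replicate 3 and lay between 4.17 and 6.58 in the other libraries. In KD replicate 3, Dcn thus stood farther above the other KD libraries than Lum beside it.

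**Figure D3:**
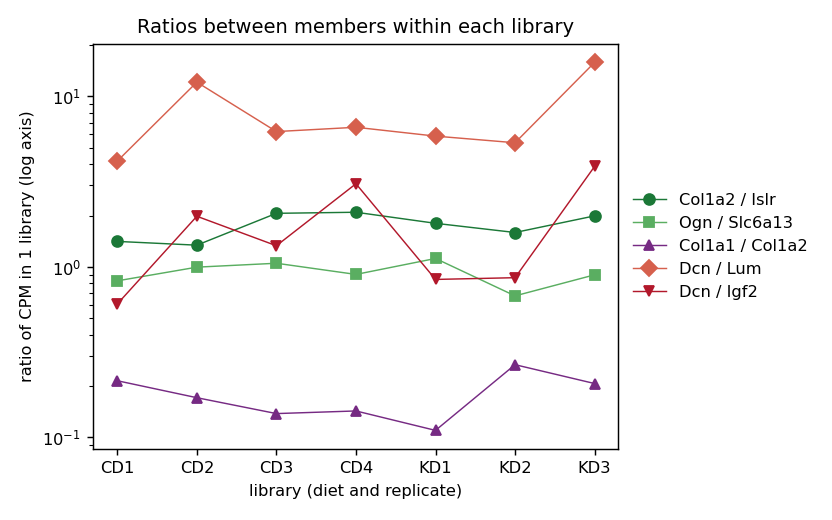
Ratio of CPM between pairs of members (vertical log axis) in each of the 7 libraries (horizontal axis). The Col1a2 to Islr line stays between 1.34 and 2.09, whereas the Dcn to Lum line rises to 12.1 in CD replicate 2 and 15.8 in KD replicate 3.

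Other genes of meningeal and perivascular fibroblasts showed the same highest library. Of 42 such genes listed, 41 passed the filter, and 35 of these were highest in CD replicate 4. Their summed level was 850, 912, 1110 and 2940 CPM in CD and 858, 708 and 1420 CPM in KD. In KD against CD, 34 of the 41 were negative and 7 positive, with a median log2 fold change of -0.45, and 0 passed the adjusted test. Without CD replicate 4, 15 of 40 were negative and the median was 0.05. Ptgds, which encodes the prostaglandin D synthase secreted into cerebrospinal fluid, was the most abundant, at 360, 387, 480 and 1680 CPM in CD and 330, 196 and 608 CPM in KD. Nov (Ccn3), a matricellular protein gene that neurons also express, was instead highest in KD replicate 3, at 263 CPM against 93.7 to 208 CPM in the other libraries. All CD libraries lay above all KD libraries for 2 of the 41, against 2.56% of all genes. These were Fbln2 (fibulin 2) and Mgp (matrix Gla protein), named after their values were seen. Mgp was at 13.1, 10.5, 10.7 and 65.6 CPM in CD and 9.71, 6.96 and 9.11 CPM in KD, with an adjusted p of 0.979 in edgeR.

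Genes that lie near the members in the genome divided into those with a similar pattern and those without. Omd, at 15.2 kb from Ogn, encodes osteomodulin, and Ecm2 lies in the same cluster. Omd was at 0.712, 1.44, 2.07 and 6.66 CPM in CD and 1.75, 0.558 and 2.20 CPM in KD. Ecm2 was at 10.1 CPM in CD replicate 4 and 2.61 to 5.43 CPM elsewhere. Aspn (asporin), also beside Ogn, showed no such peak, with 2.16 CPM in CD replicate 4 and 1.26 to 2.38 CPM elsewhere. Col5a2, at 24.6 kb from Col3a1, encodes a chain of type V collagen and was at 13 CPM in CD replicate 4 and at most 7.36 CPM elsewhere.

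The transporter genes beside the transporter members peaked in CD replicate 4 as well. Slc6a12 encodes the betaine and GABA transporter BGT1, 5.34 kb from Slc6a13, and was at 7.97 CPM there against 0.741 to 3.14 CPM in the other libraries. Slc22a8 encodes OAT3, 6.20 kb from Slc22a6, and was at 33.6 CPM against 6.69 to 16.7 CPM. In contrast Epyc (epiphycan), on the far side of Lum from Dcn, was lowest in CD replicate 4, at 0.710 CPM against 1.74 to 4.00 CPM. Islr2 was likewise lowest there, at 29.2 CPM against 32.6 to 45.7 CPM.

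The neighbours Casd1 and Sgce of Col1a2 and Ppp1r9b of Col1a1 varied little, with CD replicate 4 at 0.897, 1.14 and 0.885 times the median of the other libraries. Th, which lies 226 kb from Igf2 and encodes tyrosine hydroxylase, was at 10.6 CPM in CD replicate 4 against 0.588 to 1.80 CPM. It is also an olfactory bulb marker. H19, the imprinted partner of Igf2, had 1 to 17 counts per library. Kera, Ins2 and Sgca were also below the filter, so 12 of 16 neighbours were tested, with 4 higher and 8 lower in KD and 0 passing the adjusted test.

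The machinery that modifies, exports and crosslinks collagen differed less between libraries in its summed level. Of its 24 tested genes, 14 (58.3%) were highest in CD replicate 4, beside 25.3% of all tested genes. The 24 tested genes split into 10 above and 14 below 0 in KD against CD, their median log2 fold change being -0.03, and 0 passed the adjusted test. Their summed level was 809 to 896 CPM in CD and 847 to 895 CPM in KD. Sec23a and Mia3, which serve the export of large cargo such as procollagen from the endoplasmic reticulum and are used by most cells, were at 240 and 206 CPM in CD replicate 4 and at 229 to 299 and 182 to 204 CPM elsewhere. Other genes of the list peaked there, such as Serpinh1, the collagen chaperone HSP47, at 21.6 CPM against 6.35 to 11.6 CPM, and Adamts2, a procollagen protease, at 11.2 CPM against 2.29 to 4.53 CPM, both named after their values were seen. The list of collagen and matrix breakdown, which includes inhibitors of it, had 8 tested genes, of which 2 were higher and 6 lower. Timp3, an inhibitor of matrix metalloproteases, was at 196 CPM in CD replicate 4 and 88.3 to 124 CPM elsewhere, while Timp2 was highest in KD replicate 3, at 353 CPM against 121 to 178 CPM.

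For TGF-beta, a main inducer of collagen genes, 12 genes of the pathway were tested, 8 of them above and 4 below 0 in KD, and their median log2 fold change was 0.07. Smad3, which carries the signal to the nucleus, was at 84.1 to 119 CPM in CD and 94.0 to 127 CPM in KD. Tgfbr1, a receptor, was lowest in CD replicate 4, at 60.6 CPM against 74.9 to 109 CPM. In the insulin-like growth factor axis, in which Igf2 is a ligand, 4 of 11 tested genes were higher and 7 lower, with a median of -0.22. Igfbp5, a binding protein of the ligands, was at 307 CPM in CD replicate 4 and 92.2 to 155 CPM elsewhere. The receptor gene Igf1r was at 101 to 118 CPM in CD and 96.3 to 133 CPM in KD. None of these genes passed the adjusted test.

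Markers of other tissues and cells were higher in the same library. All 7 olfactory bulb genes tested were highest in CD replicate 4, and the 8 listed summed to 10.3, 11.1, 13.6 and 85.0 CPM in CD and 6.67, 8.35 and 21.6 CPM in KD. Cdhr1, a cadherin of mitral and tufted cells, was at 32.4 CPM in CD replicate 4, at 12.9 CPM in KD replicate 3 and at 0.997 to 3.42 CPM elsewhere. All 7 border macrophage genes were highest in CD replicate 4 too, with sums of 14.4, 16.0, 25.5 and 47.7 CPM in CD and 16.4 to 21.5 CPM in KD. Mrc1, the mannose receptor of these cells, was at 23.2 CPM in CD replicate 4 and 7.32 to 12.9 CPM elsewhere.

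Vessel genes stood less far above the other libraries there. The pericyte and smooth muscle genes summed to 272 CPM in CD replicate 4 and 127 to 156 CPM elsewhere, with Vtn at 146 CPM against 41.4 to 59.4 CPM and Rgs5 at 29.8 CPM against 31.0 to 53.9 CPM. All 10 endothelial genes were highest there, summing to 385 CPM against 234 to 293 CPM. The genes of cortical neurons and glia summed to 4600 CPM in CD replicate 4, within the 2680 to 5170 CPM of the other libraries. None of the genes in these lists passed the adjusted edgeR test. The part that the amount of meninges, vessel or olfactory bulb in each sample has in the members' levels was not tested.

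**Figure D4:**
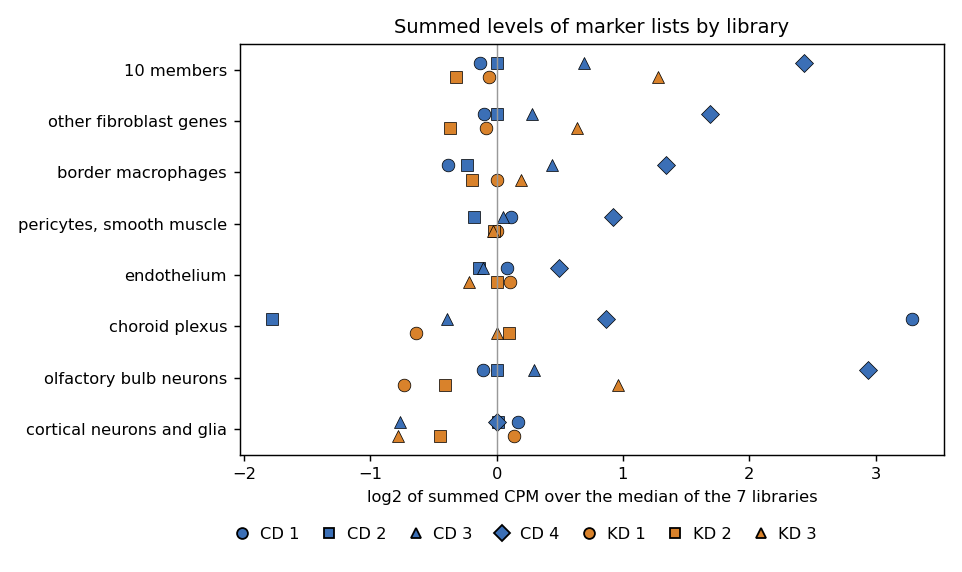
Summed CPM of each marker list in each library, as log2 of its ratio to the median of the 7 libraries (horizontal axis), for CD (blue, upper row) and KD (orange, lower row). CD replicate 4 is farthest right for the members, the other fibroblast genes, the macrophage, pericyte, endothelial and olfactory bulb lists, whereas CD replicate 1 is farthest right for the choroid plexus list.

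The genes with the pattern most like the members' were sought among all 15881 tested genes by Pearson's r with the members' mean log2 CPM over the 7 libraries. The 10 highest that are no members were Slc6a20a (r = 0.999), Slc13a4 (0.997), Cxcr4 (0.994), Gstm2 (0.993), Cnn2 (0.992), Dchs1 (0.992), Fmo1 (0.991), Mrpl24 (0.991), Gjb2 (0.990) and Il13ra2 (0.987). Slc6a20a and Slc13a4 encode transporters of proline and of sulphate, and both are in the list of other fibroblast genes. Slc6a20a was at 51.0 CPM in CD replicate 4 against a median of 7.60 CPM in the other libraries. Gjb2 encodes the gap junction protein connexin 26 and was at 38.9 CPM against a median of 6.36 CPM. Mrpl24, a mitochondrial ribosomal protein gene, had a small span, at 22.6 CPM against a median of 18.2 CPM. Over 0.9 stood 244 genes, a count that includes the 10 members. Of the 10 non-members named above, Slc6a20a, Slc13a4 and Gstm2 were also among the 10 highest when CD replicate 4 was left out.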

How the data were processed

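RNA-seq was performed on cortex of 7 APP/PS1 mice (4 CD, 3 KD; 300 ng RNA, TruSeq Stranded Total RNA Gold, 50-bp paired-end reads). The authors checked reads with FASTQC, aligned them to mm10 with STAR and counted reads for every gene by STAR's built-in HTSeq method, and the values they deposited are raw counts, neither normalized nor pooled. Tool versions, annotation and strand setting are not given in the sources used here. Samples were grouped by diet from their labels.

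From the counts, CPM were computed from each library total. KD was compared with CD over all genes with edgeR 4.0.16 in R 4.3.3 (filterByExpr, TMM, robust quasi-likelihood test, no covariate, Benjamini-Hochberg adjustment, threshold 0.05). DESeq2 1.42.0, other scalings and filters, Xist as a covariate, a replicate block and leaving out each library were alternatives. The procedure was also run on simulated data, and its outcome there is not reported here. The members and the gene lists were chosen with earlier results of these data known. Named genes were the members, all genomic neighbours, the 2 with the highest mean CPM in each list, and the 10 most like the members, except 1 gene that is not reported here. Likeness used log2 CPM with a prior count of 2. Coordinates come from GENCODE M21 (mm10) by symbol, and promoters from RefSeq, with no entry for 3 members. Once each gene's diet group mean was subtracted, the remaining deviations of mice sharing a replicate number correlated at 0.251, 0.195 and 0.098. These mice were not treated as pairs. The floor of 3 counts covers counting error only.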

Additional observations from a re-analysis of the deposited data

Results flagged for a closer look

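Dixon's test of the 4 CD libraries was run on 25 values, the CPM of the 10 members and the summed CPM of 15 lists, and 8 passed the 95% critical value. Chance flags 5% of groups, but no chance count applies to these values. The members and the lists were both chosen with earlier results of these data known, so the gaps are a description. The values are not independent, since the same libraries enter all of them. CD replicate 4 stood apart in 7 of the 8. Its gap to the next CD library was 0.889 of the group's range for Dcn, 0.902 for Lum and 0.863 for Islr. The gap was 0.843 for the summed members, 0.878 for the summed other fibroblast genes, 0.847 for the summed genes of collagen and matrix breakdown and 0.956 for the summed olfactory bulb genes. The list of collagen and matrix breakdown, which includes inhibitors of it, summed higher still in KD replicate 3, at 499 CPM against 403 CPM in CD replicate 4. Most of both sums came from the inhibitors Timp2 and Timp3. They were at 353 and 124 CPM in KD replicate 3 and at 178 and 196 CPM in CD replicate 4. Of the 8 tested genes in this list, 3 (37.5%) were highest in CD replicate 4, beside 25.3% of all tested genes. CD replicate 1 stood apart for the summed choroid plexus genes, with a gap of 0.839. The other 7 members were highest in CD replicate 4 without passing the critical value. The cause of these gaps was not tested.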

How the results depend on the processing

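The number of genes with an unadjusted p of at most 0.01 was 51. It was 120 with DESeq2, 236 with Xist as a covariate and 182 with the replicate block, and 19 to 211 when single libraries were left out: 19 without CD replicate 1, 31 without CD replicate 2, 211 without CD replicate 3, 33 without CD replicate 4, 96 without KD replicate 2 and 33 without KD replicate 3. The number with an adjusted p under 0.05 was 0 under every setting run, and DESeq2 gave no adjusted p for 51 genes. The members' median log2 fold change was 0.12 without CD replicate 4 and 0.04 with the replicate block, which has no place for CD replicate 4, with 3 members negative and 7 positive; the samples share only a number. All 10 members were negative under every other setting, with medians of -0.36 when Xist was the covariate, -0.50 when KD replicate 1 was left out, -1.26 without KD replicate 3 and -1.01 to -0.53 in the rest. The median likeness of the other fibroblast genes moved from 0.88 to 0.75 without CD replicate 4. The causes were not tested. With 4 and 3 mice and SEs of 0.38 to 0.96, every member's fitted difference was under 2 SE. Col1a1, with 33 to 272 counts, is the least deeply counted.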

Other observations

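Ependymal genes, from the ciliated lining of the ventricles, summed to 11.3, 8.66, 5.06 and 16.1 CPM in CD and 10.1, 5.55 and 13.2 CPM in KD. Foxj1, the master regulator of motile cilia, was at 4.29 CPM in CD replicate 4 and 1.13 to 4.02 CPM elsewhere, while Rsph1, a component of the ciliary axoneme, was highest in KD replicate 3 at 6.02 CPM. Ttr, the transthyretin made by choroid plexus epithelium, was at 425 CPM in CD replicate 1 and 5.68 to 45.4 CPM elsewhere, and Kl, the klotho gene, was at 11.9 CPM in CD replicate 1 and 12.6 CPM in CD replicate 4. All 12 choroid plexus genes had a negative log2 fold change in KD against CD, beside 51.0% of all tested genes. Their median was -0.90, and 0 passed the adjusted edgeR test. The groups overlapped in summed level, at 478, 14.2, 37.2 and 89.0 CPM in CD and 31.3, 52.1 and 48.8 CPM in KD. CD replicate 2 thus lay below every KD library.

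Of the red blood cell genes only Alas2, the erythroid enzyme of haem synthesis, passed the filter. It was at 6.15 to 10.5 CPM in CD and 6.24 to 8.73 CPM in KD. Hba-a1 and Hba-a2 had 0 counts in every library, and the symbols Hbb-bs and Hbb-bt were not in the count files. The list therefore rests on Alas2 alone. Mbp, which encodes myelin basic protein, was low in both replicates numbered 3, at 254 CPM in CD and 266 CPM in KD, beside 500 to 1210 CPM in the other libraries. The members Ogn and Slc6a13 were raised in those same 2 libraries. Across all tested genes, 362 were at least 3-fold over the median of the other libraries in CD replicate 4.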
